A study of Mus musculus with 6 samples.

Results

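Neutrophils find sites of infection and injury by chemoattractant receptors, G protein-coupled receptors at the cell surface that read gradients of bacterial peptides, complement fragments and lipid mediators. Ligand binding releases Gi-type G protein subunits, which activate phosphoinositide 3-kinase gamma and Rac GTPases and so drive directed migration, degranulation and the oxidative burst. The formyl peptide receptors sense peptides that begin with N-formylmethionine, as bacteria and mitochondria make them. C5a and C3a are fragments released when complement is activated, and leukotriene B4 and platelet-activating factor are lipids made by activated leukocytes. Described here are the transcripts of 8 such receptors in blood neutrophils of mice with and without periodontitis: *Fpr1* and *Fpr2* for formyl peptides and related ligands, *C5ar1*, *C5ar2* and *C3ar1* for complement fragments, *Ltb4r1* for leukotriene B4, *Ptafr* for platelet-activating factor, and *Ffar2* for short-chain fatty acids. The genes were taken by name from a table of 29097 genes, and all 8 were found in it.

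The libraries came from C57BL/6 wild type male mice aged 8 weeks. In the ligature-induced periodontitis group (LIP), silk ligatures were tied around the second molars of both jaws for 14 d, whereas Ctrl mice carried no ligature for the same time. Neutrophils were sorted from peripheral blood (PB) as CD45+CD11b+Ly6G+ cells, and each of the 3 libraries per group held the pooled neutrophils of 5 mice, so that the spread between libraries is a spread between pools and not between single mice. Libraries were made by Smart-seq2, in which mRNA is copied from its poly(A) tail into full-length cDNA and amplified by PCR.

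Between 52186555 and 57262379 reads per library were assigned to genes. Levels are given as FPKM, which scales reads by gene length and library total, where genes are compared with each other. Changes between groups are log2 fold changes from edgeR's quasi-likelihood test on the counts, with trimmed mean of M values (TMM) scaling, and normalized levels for this test are CPM, counts scaled to the TMM-adjusted library total. The test covered the 10440 genes whose mean FPKM reached 1, and a gene was called at a Benjamini-Hochberg adjusted p under 0.05. In LIP, 2766 of these genes (26.5%) were called higher and 2835 (27.2%) were called lower, and the median change over all of them was -0.09. With library totals in place of TMM the split was 1919 higher and 4146 lower, and with library totals counted without erythroid, B and T cell genes it was 1372 higher and 5322 lower. Changes of this breadth are the background against which the receptors are read.

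The sorted cells of the 2 groups also differed in transcripts of other blood cells. Neutrophil genes (a list of 21, among them *S100a8* and *S100a9*, subunits of calprotectin, with log2 fold changes of 1.95 and 2.03) made up 1.96 to 2.09% of reads in Ctrl and 5.81 to 6.16% in LIP, and all 21 were called higher with a median of 1.84. Erythroid genes made up 14.8 to 15.3% of reads in Ctrl and 1.57 to 1.63% in LIP. All 11 tested erythroid genes were lower (median -2.92, *Hba-a1* -2.80, *Hba-a2* -2.89), as were 17 of 17 B cell genes (median -2.53, *Cd74* -2.27, *Igkc* -2.56) and 16 of 16 T cell genes (median -2.37, *Trbc1* -2.08, *Trbc2* -2.50). The B cell list fell from a range of 2.58 to 2.84% of reads to 0.411 to 0.425%, and the T cell list from 0.110 to 0.116% to 0.0192 to 0.0227%. No gene of these 4 lists was at 0 in any library. In bulk samples, fewer cells of a type and less RNA per cell cannot be told apart, and the part of this shift in the receptors' changes was not tested. The receptors are therefore given on both scalings, TMM and a scaling that sets the 21 neutrophil genes equal between groups. On the second scaling 71 of 10440 genes (0.68%) were higher and 9186 (88.0%) lower in LIP, with a median of -1.88 over all genes.

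Of the 8 receptors, 6 passed the filter, and each of these 6 had an FPKM above 1 in every library. All 6 were called higher in LIP with TMM scaling (against 26.5% of all tested genes). Their log2 fold changes lay between 1.44 and 2.10 around a median of 1.60. On the neutrophil scaling 1 of them, *Fpr1*, was higher (against 0.68% of all tested genes) and 1 of them, *Ptafr*, was lower (against 88.0%). The other 4 were not called, and the median was -0.18 (against -1.88 over all tested genes). Neither call on the neutrophil scaling held in every omission of a single library, as given with each gene. In all 6, every LIP library lay above every Ctrl library in CPM, a pattern that 3161 of the 10440 tested genes (30.3%) showed. *C3ar1* and *Ffar2* lay below the filter and their groups overlapped. Together the 8 receptors took 0.111 to 0.119% of reads in the Ctrl libraries and 0.287 to 0.306% in the LIP libraries.

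**Figure D1:**
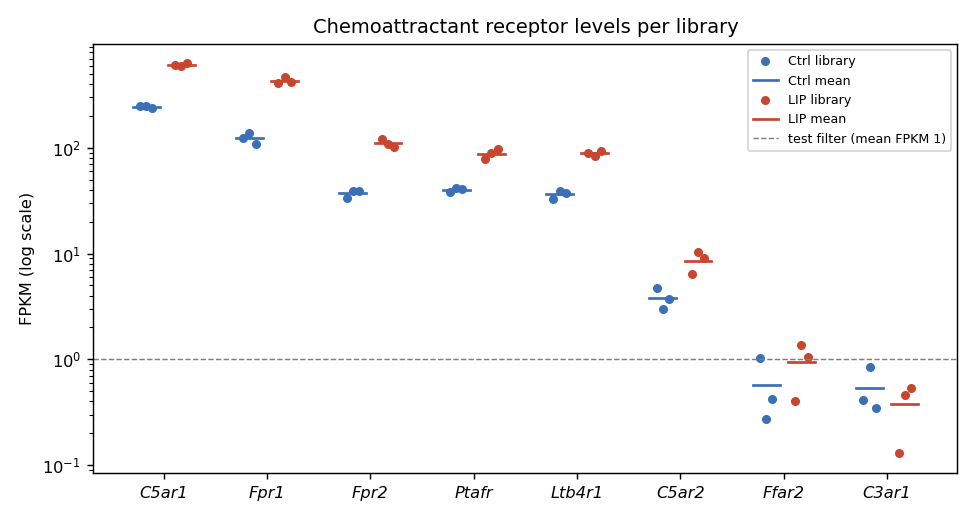
FPKM (log axis) of each receptor in the 3 Ctrl (blue) and 3 LIP (red) libraries, with the group means as bars and the filter of the test as a dashed line. The 6 receptors from *C5ar1* to *C5ar2* lie higher in every LIP library than in every Ctrl library on this scale, which divides by library totals, whereas the points of *Ffar2* and *C3ar1* overlap and lie near or under 1. On the neutrophil scaling only *Fpr1* of these 6 was called higher (against 0.68% of all tested genes).

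The formyl peptide receptors lie beside each other on chromosome 17. *Fpr1* (ENSMUSG00000045551, chr17:17876471-17883940 in GRCm38, minus strand) encodes the high-affinity receptor for bacterial formyl peptides, and *Fpr2* (ENSMUSG00000052270, chr17:17887824-17893952, plus strand) encodes a receptor for a wider set of ligands that include serum amyloid A and annexin A1. The gene models are 3883 bases apart and point away from each other, and the coding sequence of each lies in 1 exon. The 250 bases before the start of each gene in RefSeq (GRCm38.p6) are shown. Both genes were called higher with TMM scaling, as were 26.5% of all tested genes, and *Fpr1* alone on the neutrophil scaling. The windows are chr17:17883940-17884189 on the minus strand for *Fpr1* and chr17:17887574-17887823 on the plus strand for *Fpr2*, both printed 5′ to 3′ on the strand of the gene. Capitals mark matches, on either strand, to the C/EBP pattern TTNNGNAA and the PU.1 core GAGGAA, motifs of transcription factors of the myeloid lineage.
Fpr1: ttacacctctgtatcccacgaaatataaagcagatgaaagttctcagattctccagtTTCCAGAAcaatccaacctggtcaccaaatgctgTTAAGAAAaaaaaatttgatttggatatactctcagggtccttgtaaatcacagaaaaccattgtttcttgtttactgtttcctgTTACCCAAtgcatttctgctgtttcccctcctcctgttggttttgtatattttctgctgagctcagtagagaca
Fpr2: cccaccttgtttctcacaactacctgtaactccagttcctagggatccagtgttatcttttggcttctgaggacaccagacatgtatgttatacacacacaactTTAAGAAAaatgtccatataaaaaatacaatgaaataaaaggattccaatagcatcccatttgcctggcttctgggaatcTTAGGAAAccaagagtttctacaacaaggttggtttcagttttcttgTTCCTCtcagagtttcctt

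The *Fpr1* window held 3 C/EBP matches, and the *Fpr2* window held 2 C/EBP matches and 1 PU.1 match, the latter 14 to 19 bases before the start. Among all 32817 RefSeq windows of this length, 36.8% held the C/EBP pattern and 23.3% the PU.1 core, so a match to either is common. The patterns do not overlap each other in the *Fpr2* window.

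*Fpr1* stood at 125, 138 and 110 FPKM in the Ctrl libraries and at 407, 464 and 424 FPKM in the LIP libraries. The groups were well apart, and the lowest LIP library lay far above the highest Ctrl library. In CPM, the level went from 160 ± 19.6 (SD, n = 3) to 686 ± 44.1, a 4.29-fold difference of means, and the log2 fold change was 2.10 (SE 0.114, 95% CI 1.85 to 2.36, edgeR adjusted p = 3.27e-07). On the neutrophil scaling *Fpr1* was still called higher, with a log2 fold change of 0.31 (SE 0.127, 95% CI 0.03 to 0.59, edgeR adjusted p = 0.0363). This call was lost when any library other than the second Ctrl library was left out (0.21 to 0.34, edgeR adjusted p from 0.0554 to 0.161), with the lowest value without the third Ctrl library, and without the second Ctrl library the change was 0.44 (edgeR adjusted p = 0.00162). *Fpr1* had the highest log2 fold change of the 6 receptors on both scalings.

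*Fpr2* stood at 33.4, 39.0 and 39.0 FPKM in Ctrl and at 122, 109 and 102 FPKM in LIP. Its groups did not overlap either, and its level in each library was below that of *Fpr1*. The CPM went from 46.8 ± 4.77 to 173 ± 16.7, with a log2 fold change of 1.88 (SE 0.131, 95% CI 1.59 to 2.18, edgeR adjusted p = 1.41e-06). On the neutrophil scaling the change was 0.10 (95% CI -0.22 to 0.41, edgeR adjusted p = 0.525), so a difference of either direction within that interval is possible. The gene model of *Fpr2* overlaps that of *Fpr3*, a related receptor gene with a mean FPKM of 0.0202, and the coding sequences of the pair are 88.1% identical. *Fpr1* and *Fpr2* are 71.1% identical over 1035 aligned coding bases and share 1 of 1275 words of 50 bases, whereas *Fpr2* and *Fpr3* share 77 of 1084, so reads could be split more easily between the latter pair. In FPKM, *Fpr2* amounted to 29.9% of *Fpr1* in Ctrl and to 25.7% in LIP, a log2 ratio of -1.74 ± 0.220 (SD, n = 3) against -1.96 ± 0.196. The difference of -0.22 did not pass a two-sided exact permutation test (p = 0.3, adjusted p = 0.6 over the 2 ratios tested), and the libraries overlapped.

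The receptors of complement fragments were read next. *C5ar1* (ENSMUSG00000049130, chr7:16246743-16259540, minus strand) encodes the signalling receptor for C5a, and *C5ar2* (ENSMUSG00000074361, chr7:16234585-16244154, minus strand) encodes a C5a receptor that does not couple to G proteins. They are neighbours, 2588 bases apart, and their coding sequences are spread over 2 exons each. The window before the RefSeq start of *C5ar1*, the receptor with the highest level of the 8, is chr7:16259339-16259588 on the minus strand. This start lies 202 bases inside the deposited gene model, and 28 bases of the window fall in GENCODE exons. Capitals mark its 1 match to the C/EBP pattern.
C5ar1: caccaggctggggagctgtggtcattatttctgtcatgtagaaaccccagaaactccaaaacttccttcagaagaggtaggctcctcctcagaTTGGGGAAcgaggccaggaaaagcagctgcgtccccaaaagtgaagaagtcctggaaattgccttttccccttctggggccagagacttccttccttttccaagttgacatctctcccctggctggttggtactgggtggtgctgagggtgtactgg

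*C5ar1* stood at 248, 250 and 239 FPKM in Ctrl and at 601, 600 and 628 FPKM in LIP. The libraries of each group lay close together and the groups were far apart. In CPM the level went from 613 ± 18.9 to 1881 ± 45.7, with a log2 fold change of 1.62 (SE 0.0752, 95% CI 1.45 to 1.79, edgeR adjusted p = 1.55e-07). *C5ar1* ranked 103 by mean FPKM among the 10440 tested genes and had the smallest SE of the 6 receptors. Its change on the neutrophil scaling was -0.17 (95% CI -0.37 to 0.04, edgeR adjusted p = 0.109).

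*C5ar2* was far lower, at 4.75, 2.98 and 3.73 FPKM in Ctrl and at 6.37, 10.3 and 9.07 FPKM in LIP. The lowest LIP library was still above the highest Ctrl library, but the distance between them was small beside the spread within LIP. The log2 fold change was 1.47 with the widest error of the 6 receptors (SE 0.242, 95% CI 0.94 to 2.01, edgeR adjusted p = 0.000512), and on the neutrophil scaling it was -0.31 (95% CI -0.86 to 0.24, edgeR adjusted p = 0.256). The *C5ar2* level amounted to 1.53% of that of *C5ar1* in Ctrl and to 1.38% in LIP, with log2 ratios of -6.03 ± 0.343 and -6.18 ± 0.352 (SD, n = 3). That difference of -0.15 was within the spread (two-sided exact permutation test, p = 0.6, adjusted p = 0.6). The coding sequences of the pair are 59.5% identical and share no word of 50 bases.

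*C3ar1* (ENSMUSG00000040552, chr6:122847138-122856161, minus strand) encodes the receptor for C3a. It was read 102, 216 and 86 times in the Ctrl libraries and 34, 122 and 130 times in the LIP libraries, which is 0.348 to 0.849 FPKM and 0.129 to 0.532 FPKM. The highest library was a Ctrl library, the lowest was a LIP library, and the other libraries overlapped. In the fit without a filter the log2 fold change was -0.18 (SE 0.703, 95% CI -1.80 to 1.43, edgeR adjusted p = 0.890), an interval that holds both a fall and a rise.

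Of the lipid receptors, *Ltb4r1* (ENSMUSG00000046908, chr14:55765962-55768494, plus strand) encodes the high-affinity receptor for leukotriene B4, through which neutrophils relay signals to each other in swarms. *Ptafr* (ENSMUSG00000056529, chr4:132564067-132582683, plus strand) encodes the receptor for platelet-activating factor. The coding sequence of each lies in 1 exon. Their windows before the RefSeq start are chr14:55765712-55765961 and chr4:132563817-132564066, both on the plus strand, and are shown beside those of the peptide receptors because they held no C/EBP match. Capitals mark the 1 PU.1 match of each.
Ltb4r1: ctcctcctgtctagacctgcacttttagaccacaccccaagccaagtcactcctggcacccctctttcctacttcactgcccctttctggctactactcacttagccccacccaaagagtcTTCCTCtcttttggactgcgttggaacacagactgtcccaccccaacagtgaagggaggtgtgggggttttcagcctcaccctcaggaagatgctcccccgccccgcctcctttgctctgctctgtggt
Ptafr: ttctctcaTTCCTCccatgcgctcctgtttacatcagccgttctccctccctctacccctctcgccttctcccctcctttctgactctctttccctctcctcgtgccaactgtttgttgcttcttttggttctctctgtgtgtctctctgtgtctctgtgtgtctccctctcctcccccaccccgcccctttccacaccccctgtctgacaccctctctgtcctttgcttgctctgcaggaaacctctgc

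Over the 8 receptors, 5 windows held the C/EBP pattern (*Fpr1*, *Fpr2*, *C5ar1*, *C5ar2* and *Ffar2*), which 36.8% of all windows held. The PU.1 core was in 3 (*Fpr2*, *Ltb4r1* and *Ptafr*), against 23.3% of all windows. None of the 8 windows held the interferon-stimulated response element (GAAA, any 2 bases, GAAA), which 2.97% of all windows held. Nor did any hold the NF-kappaB pattern (GGGA, any base, TTTCC), which 0.357% held, and with so few windows these counts are a description only. These letters were searched on both strands of 250 bases only.

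*Ltb4r1* stood at 32.9, 39.1 and 37.3 FPKM in Ctrl and at 89.9, 83.7 and 92.7 FPKM in LIP. All LIP libraries were above all Ctrl libraries. The CPM went from 49.4 ± 5.10 to 148 ± 7.87, with a log2 fold change of 1.59 (SE 0.125, 95% CI 1.31 to 1.87, edgeR adjusted p = 2.95e-06). It was -0.20 on the neutrophil scaling (95% CI -0.51 to 0.11, edgeR adjusted p = 0.205). The related low-affinity receptor gene *Ltb4r2*, named here after its values were seen, had a mean FPKM of 0.0946 and was below the filter, and its coding sequence is 61.9% identical to that of *Ltb4r1* with no shared word of 50 bases.

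*Ptafr* stood at 38.1, 41.7 and 41.0 FPKM in Ctrl and at 78.1, 90.0 and 97.0 FPKM in LIP. The Ctrl libraries were close to each other, the LIP libraries were more spread, and the groups did not overlap. The CPM went from 142 ± 9.04 to 385 ± 40.0, with a log2 fold change of 1.44 (SE 0.113, 95% CI 1.19 to 1.69, edgeR adjusted p = 2.86e-06). This was the smallest change of the 6 receptors. On the neutrophil scaling *Ptafr* was called lower in LIP, as were 88.0% of all tested genes, at -0.35 (SE 0.121, 95% CI -0.61 to -0.08, edgeR adjusted p = 0.0177). That call was lost without the first LIP library (-0.28, edgeR adjusted p = 0.0902) and without the second LIP library (-0.34, edgeR adjusted p = 0.0537).

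*Ffar2* (ENSMUSG00000051314, chr7:30818348-30823775, minus strand) encodes a receptor for acetate and other short-chain fatty acids made by gut bacteria. It was read 168, 47 and 68 times in Ctrl and 70, 233 and 167 times in LIP, between 0.272 and 1.36 FPKM. The first Ctrl library reached the level of the LIP libraries, and the first LIP library was as low as the other Ctrl libraries. The log2 fold change without a filter was 1.04 (SE 0.694, 95% CI -0.55 to 2.64, edgeR adjusted p = 0.344), so that no change and a change as large as that of *Fpr1* are both inside the interval.

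**Figure D2:**
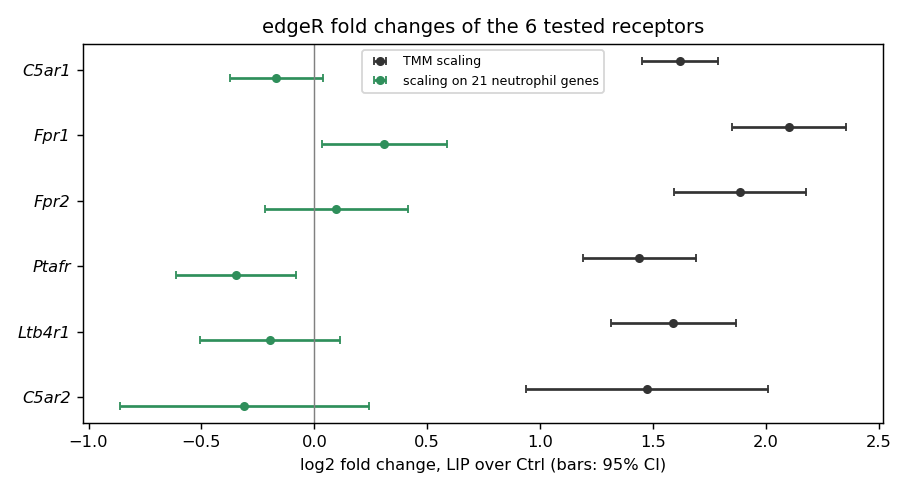
Log2 fold change (LIP over Ctrl) of the 6 tested receptors from edgeR, with TMM scaling (black) and with the 21 neutrophil genes set equal between groups (green), and 95% confidence intervals as bars. With TMM scaling every interval lies above 0, from *Ptafr* at 1.44 to *Fpr1* at 2.10, whereas on the neutrophil scaling the interval of *Fpr1* lies above 0, that of *Ptafr* lies below 0 and the other 4 include 0.

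The order of the receptors by level per gene length was nearly the same in both groups. In Ctrl, *C5ar1* was highest at 246 ± 6.27 FPKM, followed by *Fpr1* at 124 ± 14.3 FPKM. *Ptafr* (40.3 ± 1.92 FPKM), *Fpr2* (37.1 ± 3.26 FPKM) and *Ltb4r1* (36.5 ± 3.19 FPKM) followed, and the libraries of each overlapped with those of the next. *C5ar2* was clearly lower at 3.82 ± 0.889 FPKM, and *Ffar2* and *C3ar1*, whose libraries overlapped, were lowest. In LIP, *C5ar1* (610 ± 15.9 FPKM) and *Fpr1* (432 ± 29.3 FPKM) led again. *Fpr2* came next at 111 ± 10.2 FPKM and no longer overlapped with *Ltb4r1* (88.8 ± 4.59 FPKM), which in turn overlapped with *Ptafr* (88.3 ± 9.54 FPKM). *C5ar2* followed at 8.57 ± 2.0 FPKM, and *Ffar2* and *C3ar1* were again lowest and overlapped.

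Shares of the summed FPKM of the 8 receptors do not depend on library scaling. *Fpr1* took 25.4 ± 1.87% (SD, n = 3) in Ctrl and 32.2 ± 1.68% in LIP, whereas *C5ar1* went from 50.3 ± 1.30% to 45.5 ± 1.20% and *Ptafr* from 8.24 ± 0.439% to 6.59 ± 0.587%. The libraries of the 2 groups did not overlap in these 3 shares, nor in that of *C3ar1*, which was 0.108% in Ctrl and 0.0277% in LIP. *C3ar1* was read only 34 to 216 times per library, and in FPKM itself its groups overlapped. How often the shares of genes in other sets separate in this way was not counted. The shares of *Fpr2* (7.60% and 8.29%), *Ltb4r1* (7.46% and 6.63%), *C5ar2* (0.785% and 0.638%) and *Ffar2* overlapped. A larger share of 1 receptor makes the others smaller, so these shares are not independent of each other.

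Each receptor was then set against the mean log2 FPKM of the 21 neutrophil genes of the same library. On this measure *Fpr1* was 0.32 higher in LIP (0.21 without the third Ctrl library and 0.44 without the second), with -0.78, -0.52 and -0.98 in the Ctrl libraries and -0.49, -0.38 and -0.45 in the LIP libraries. *C5ar1* was lower by a difference of -0.17, *Ptafr* by -0.35 and *C3ar1* by -2.13. For these 4 the groups did not overlap, and each reached p = 0.1 in a two-sided exact permutation test. This is the smallest p that 3 libraries against 3 allow, and it was 0.2 after adjustment over the 8 receptors. The share of all genes that separate on this measure was not counted. On the neutrophil scaling of the counts, 88.0% of all tested genes were called lower and 0.68% higher, with a median of -1.88. The groups overlapped for *Fpr2* (difference 0.10, p = 0.6 by the same exact test), *C5ar2* (-0.31, p = 0.4), *Ltb4r1* (-0.19, p = 0.3) and *Ffar2* (-0.71, p = 0.5). The value of *C3ar1* rests on few reads, with the first LIP library, at 34 reads, furthest from the rest.

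**Figure D3:**
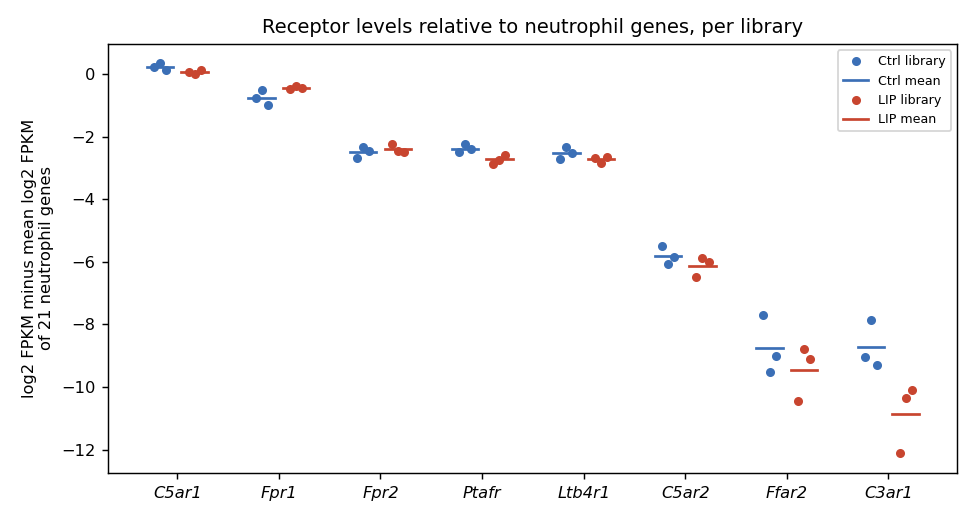
Log2 FPKM of each receptor minus the mean log2 FPKM of 21 neutrophil genes, per library, with group means as bars (Ctrl blue, LIP red). The groups are close for the 6 receptors from *C5ar1* to *C5ar2*, from a difference of 0.32 for *Fpr1* to -0.35 for *Ptafr*, and the points of *Ffar2* and *C3ar1* are widely spread.

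Genes of the same pathway were read by role. The list of other formyl peptide receptor genes had 5 names, of which *Fpr3* alone was in the table, and it was below the filter. Of 20 other leukocyte receptors for lipids and metabolites, 14 were tested, 7 were higher (against 26.5% of all tested genes) and 4 lower (against 27.2%), with a median of 0.67. The 3 highest were *Hcar2*, the receptor for beta-hydroxybutyrate and niacin, at 1.67 (528 to 1683 CPM, edgeR adjusted p = 2.14e-07), the prostaglandin E2 receptor gene *Ptger2* at 1.64 and the prostacyclin receptor gene *Ptgir* at 1.63. The 3 lowest were the fatty acid receptor gene *Ffar1* at -3.50 (9.54 to 0.840 CPM), the sphingosine-1-phosphate receptor gene *S1pr1* at -2.29 (138 to 28.2 CPM) and the oxysterol receptor gene *Gpr183* at -1.77 (76.2 to 22.3 CPM). *S1pr1* and *Gpr183* are also expressed by B and T cells, whose lists fell in the same libraries, and their part in these values was not tested.

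Of 18 genes for ligands and the enzymes that make or break them, 16 were tested, 10 were higher (against 26.5% of all tested genes) and 3 lower (against 27.2%), with a median of 1.05. The highest were *Saa3*, a serum amyloid A gene, at 2.17 (2.99 to 13.4 CPM), *Alox5*, the 5-lipoxygenase that begins leukotriene synthesis, at 1.89 (96.9 to 360 CPM) and *Pla2g7*, the plasma enzyme that breaks down platelet-activating factor, at 1.80 (404 to 1410 CPM). The lowest were *Pafah1b3* at -1.78, a subunit of an intracellular enzyme of the same function, *Lpcat1* at -1.75, a lysophosphatidylcholine acyltransferase, and *Mtfmt* at -1.25, the mitochondrial enzyme that formylates methionyl-tRNA. Along the leukotriene B4 route, genes named here after their values were seen, *Alox5ap*, the partner of 5-lipoxygenase, had a change of 1.80 (edgeR adjusted p = 3.16e-07), whereas *Lta4h*, the hydrolase of the last step, had -0.22 and was not called (adjusted p = 0.265). *Anxa1*, which encodes annexin A1, and *C3*, also named after their values were seen, had 1.60 and 1.77.

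Of 27 genes for G protein subunits and effectors, all were tested, 20 were higher (against 26.5% of all tested genes), 1 was lower (against 27.2%) and 6 were not called, with a median of 1.01. The highest were *Pik3r6*, a regulatory subunit of phosphoinositide 3-kinase gamma, at 1.91 (13.2 to 49.9 CPM, edgeR adjusted p = 6.67e-05), the Src family kinase gene *Fgr* at 1.83 (215 to 763 CPM) and the G protein gamma subunit gene *Gng12* at 1.69. *Adcy7*, an adenylyl cyclase gene, was the 1 called lower, at -0.84 (92.7 to 51.7 CPM). The next lowest of the called genes were *Elmo1*, a partner of Dock proteins in Rac activation, at 0.44 (edgeR adjusted p = 0.0330) and *Gng2* at 0.63. With the neutrophil genes set equal, none of the genes higher in these 3 lists stayed higher, and 9 of 14, 9 of 16 and 22 of 27 tested genes of the receptor, ligand and G protein lists were lower, where 0.68% of all tested genes were higher and 88.0% lower.

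**Figure D4:**
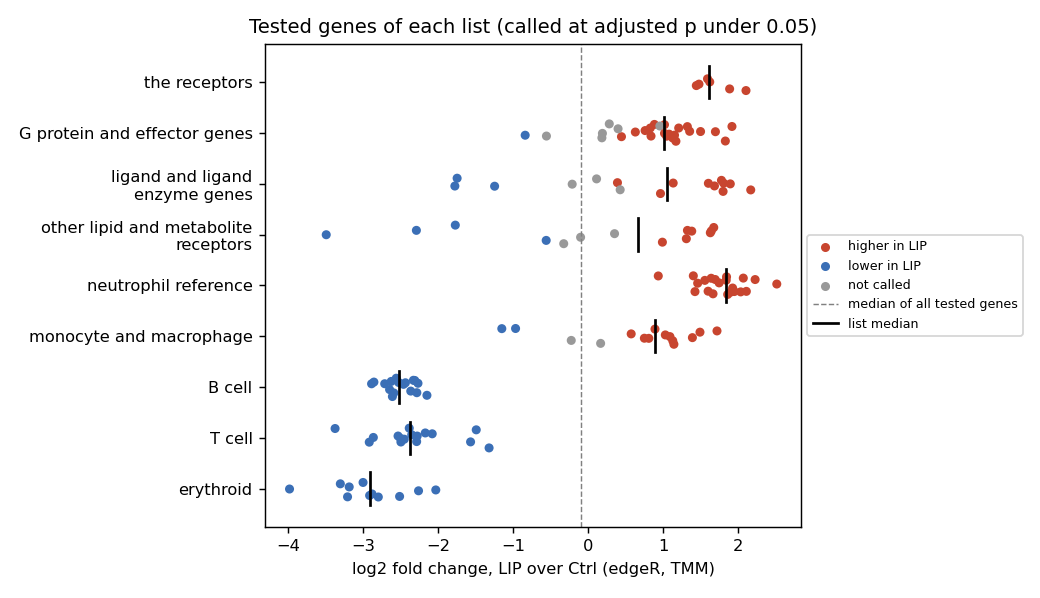
Log2 fold change (LIP over Ctrl, edgeR with TMM scaling) of each tested gene of the receptors, the pathway lists and the lists of blood cell types, coloured by call (red higher, blue lower, grey not called), with list medians as black bars and the median of all tested genes as a dashed line. The 6 receptors lie between 1.44 and 2.10, inside the range of the neutrophil genes (0.93 to 2.51), and the erythroid, B cell and T cell genes lie below -1. On the neutrophil scaling the changes of the receptors other than *Fpr1* and *Fpr2* were negative, but *Ptafr* alone was called lower (against 88.0% of all tested genes).

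Monocytes also express several of the receptors. Of 15 tested monocyte and macrophage genes, 11 were higher (against 26.5% of all tested genes), 2 lower (against 27.2%) and 2 not called with TMM scaling, and on the neutrophil scaling 0 were higher and 13 lower (against 88.0%). The list made up 0.272 to 0.300% of reads in Ctrl and 0.308 to 0.323% in LIP, with its most abundant genes *Ctss* at 0.16 (edgeR adjusted p = 0.235) and *Nr4a1* at 0.57. Platelet genes, among them *Ppbp* at 1.23 and *Pf4* at 1.21, were higher in 10 of 10 cases with TMM scaling (against 26.5%). On the neutrophil scaling 0 of them were higher and 8 lower (against 88.0%). They went from 0.119 to 0.138% of reads in Ctrl to 0.235 to 0.287% in LIP. Cells were gated as Ly6G+, and the part of both lists in the levels of the receptors was not tested.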

How the data were processed

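Groups and replicate numbers follow the sample labels. Raw read counts and FPKM values per library were deposited by the authors in 1 table with GRCm38 coordinates. The submitters' processing notes name cutadapt 1.9, FastQC and GRCm38, and the aligner, the counting tool and the use of strand are not given in the sources used here. Smart-seq2 libraries carry no molecular identifiers, and whether PCR copies were removed before counting is not given in those sources either. Where 1 of the 50 repeated gene names was used, the row of higher mean FPKM counted.

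Counts were tested with edgeR 4.0.16 (R 4.3.3; glmQLFit and glmQLFTest, TMM, no replicate block) over genes whose mean FPKM reached 1, with Benjamini-Hochberg adjustment over all of them. The common biological coefficient of variation was 0.265. The 21 neutrophil genes gave the alternative scaling. Ratios within a library were compared by two-sided exact permutation tests (scipy 1.17.1). DESeq2 1.42.0, limma 3.58.1, other filters and scalings, a replicate block and the omission of each library were alternatives, and scripts were tested on simulated data. The chi-square per gene between libraries within groups was 42.5 to 85.2, and none were counted as duplicates. RefSeq windows were matched by symbol for all 8 receptors, and the gene spans equal those of GENCODE vM21.

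The receptors and all lists were chosen with earlier results of these data known. By rule, the genes named are the 8 receptors, the 3 highest and 3 lowest called genes of each pathway list, the 2 most abundant genes of each cell type list, and the 5 genes most correlated with the receptors among those with a mean FPKM of 10 or more. *Fpr3*, *Ltb4r2*, *Alox5ap*, *Lta4h*, *Anxa1* and *C3* fall outside this rule and were named after their values were seen.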

Additional observations from a re-analysis of the deposited data

How the results depend on the processing

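The 6 tested receptors were called higher in LIP in 16 of 17 alternatives, the exception being the scaling on neutrophil genes, which left 1, *Fpr1*. That scaling sets its reference genes to no mean change by construction. It gave a median of -0.18 for the receptors and brought *Fpr2* to 0.10. The changes of *C5ar1* (-0.17), *C5ar2* (-0.31), *Ltb4r1* (-0.20) and *Ptafr* (-0.35) became negative, and of these *Ptafr* alone was called lower. This scaling left 0 higher and 9 lower among the other lipid and metabolite receptors, and 0 and 9 among the ligand genes. Among the G protein and effector genes it left 0 and 22. Library totals gave 18 higher and 2 lower there, where 1919 of 10440 tested genes were higher and 4146 lower. The median of 1.60 moved to 1.28 with library totals, 1.03 with totals without erythroid, B and T cell genes, 1.44 with a filter at a mean FPKM of 5, and 1.29 and 1.30 with limma on log2(FPKM + 1) and log2(FPKM + 0.1). The median over all tested genes, -0.09 with TMM, also moved, to -0.42 with library totals and to -0.67 with the reduced totals. The cause was not tested. Over all genes, calls numbered 71 higher and 9186 lower on the neutrophil scaling, 1372 and 5322 with the reduced totals, 2010 and 4249 with limma at a pseudocount of 1, 1974 and 4144 at 0.1, 2989 and 2817 with DESeq2, and 1768 and 1869 of 5328 genes with that stricter filter. Median-of-ratios factors gave 2891 and 2690. The numbers were 2430 and 2184 of 29097 genes without a filter, and 2762 and 2688 of 16402 with edgeR's own filter. Leaving out each library kept 6 receptors higher, with medians from 1.58 to 1.67. In these omissions 2419 to 2615 of the 10440 tested genes were called higher. On the neutrophil scaling, in fits added after seeing the data, the *Fpr1* call was lost in 5 of 6 such omissions and the *Ptafr* call in 2 of 6 (0.21 to 0.44 and -0.28 to -0.43), and without *Cxcr2* and the granule genes in the reference both calls were made (0.34 and -0.32). The log2 ratio differences changed from -0.22 to between -0.33 and -0.10 for *Fpr2* to *Fpr1*, and from -0.15 to between -0.33 and 0.04 for *C5ar2* to *C5ar1*.

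Same-numbered libraries came from different mice, and their deviations from the group means correlated by 0.0204, 0.0567 and 0.0371, so the numbers were not taken as pairs. The first Ctrl library correlated better with the third LIP library (0.0227) than with its own number. With the replicate block, 6 receptors were higher with a median of 1.61, and 2724 genes were higher and 2822 lower.

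*C3ar1* and *Ffar2*, with 34 to 233 reads per library, had intervals that reach to both sides of 0. Their counts within a group spread widely, and what limited them was not tested.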

Other observations

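Over the 6 libraries, the mean standardized log2 CPM of the 6 tested receptors was compared with 3382 other genes whose mean FPKM reached 10. The 5 most alike were *Ier5*, an immediate early response gene (Pearson r = 0.9996, log2 fold change 1.05, 628 to 1298 CPM), *G6pdx*, which encodes the first enzyme of the pentose phosphate pathway (r = 0.9995, 1.41, 99.0 to 263 CPM), *Myd88*, the adaptor of Toll-like receptors (r = 0.9994, 1.59, 192 to 579 CPM), *Slc16a3*, a lactate transporter gene (r = 0.9992, 1.71, 412 to 1347 CPM), and *Wfdc21* (r = 0.9991, 2.22, 50.8 to 237 CPM), which is in the neutrophil list. With 2 well separated groups of 3 libraries any gene that differs between them correlates highly, and 1001 genes reached an r of at least 0.95, so the order of these genes is a description only.

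Of 8 NK cell genes, 3 were higher (against 26.5% of all tested genes) and 5 not called with TMM scaling. With library totals 0 were higher and 1 lower, where 1919 of 10440 tested genes were higher and 4146 lower. On the neutrophil scaling 0 were higher and 8 lower (against 88.0%). The most abundant were *Nkg7* at -0.15 (edgeR adjusted p = 0.265) and *Gzma* at 0.20 (adjusted p = 0.220). Of 7 tested eosinophil and basophil genes, 2 were higher with TMM scaling, *Siglecf* at 1.44 and *Gata2* at 0.94. That share was close to the 26.5% of all tested genes. Of the others, 1 was lower (against 27.2%) and 4 were not called. On the neutrophil scaling 0 were higher and 4 lower (against 88.0%).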
